A study of Mus musculus with 24 samples.

Results

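Quadriceps muscle of delEx44 mice, which lack exon 44 of Dmd (the dystrophin gene) and model Duchenne muscular dystrophy, was compared with WT quadriceps in how its transcripts changed between a sedentary and a downhill-run stage. The comparison is an interaction: for every gene, the log2 change of run over sedentary delEx44 muscle minus the log2 change of run over sedentary WT muscle. It compared 10 of the 24 libraries of the series, taken by their labels alone. These were run delEx44 at 8 weeks of age (n = 2), sedentary delEx44 at 4 weeks (n = 3), run WT at 8 weeks (n = 2) and sedentary WT at 4 weeks (n = 3), all of the C57BL/6 strain. The model was fitted over 15 libraries, these 10 and those of corrected mice, run (n = 2) and sedentary (n = 3). Corrected mice are delEx44 mice that were given vectors for genome editing after birth, as described further on. Their libraries took part in the filter on low counts and in the estimate of spread, but not in the comparison. Run mice went downhill every other day for 1 month from the age at which the sedentary mice were taken. Running and growth from 4 to 8 weeks therefore came together in both genotypes and cannot be told apart. A value above 0 means that the response of delEx44 muscle was higher than that of WT muscle, whether delEx44 rose or WT fell. The sources used here give neither the sex of the mice nor the hour of harvest nor the time since the last run. They number the libraries but do not state litters or separate animals, so p-values measure only the spread between these libraries.

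Dystrophin ties the actin cytoskeleton of a muscle fibre to a membrane complex of sarcoglycans, dystroglycan, dystrobrevin and syntrophins, and through it to the matrix. Fibres without it tear most during lengthening contractions, the kind that downhill running imposes, and then go through necrosis, clearance by macrophages and regeneration from satellite cells. In the same weeks after birth healthy limb muscle completes its switch to adult fast isoforms and slows its cell division and matrix synthesis.

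The 10 libraries held 30552867 to 38090522 counts assigned to genes. Muscle transcripts were high in all 10, with creatine kinase Ckm at 14600 to 34100 CPM (counts scaled for library depth and composition) and the fast myosin Myh4 at 19400 to 60400 CPM. One library of each WT group stood apart. Sedentary WT replicate 3 had a mean log2 CPM of 3.74 over 15 neutrophil genes, against −2.68 and −2.49 in sedentary WT replicates 1 and 2, and of 5.32 over 21 tendon and cartilage genes, against 3.87 and 3.78. Run WT replicate 1 had 6.79 over 24 adipocyte genes, against 4.66 in run WT replicate 2. Sedentary WT replicate 3 also had 6.10 over those genes, against 4.87 and 4.3, 3.87 over 6 red cell genes, against −0.06 and 0.15, and 4.33 over 18 slow fibre genes, against 6.02 and 5.74. The neutrophil level was also 2.35 to 3.64 in the 4 run libraries, against −0.25 to 0.38 in sedentary delEx44 libraries. In whole muscle, fewer cells of a type and less RNA per cell cannot be told apart.

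Dmd itself stood at 40.7 and 41.8 CPM in run delEx44 muscle and 36.1, 41.8 and 41.2 CPM in sedentary delEx44 muscle, against 148 and 160 CPM in run WT and 239.6, 207.5 and 203.5 CPM in sedentary WT muscle. All 5 delEx44 libraries lay below all 5 WT libraries, which is the order their labels give. Counts are given per gene, so the loss of exon 44 itself cannot be read from these values. Dmd fell in WT muscle (log2 −0.49, adjusted p = 0.0016), while its delEx44 response was 0.05. The interaction was 0.55 ± 0.13 (SE), with an adjusted p of 0.06. Utrn, which encodes the dystrophin relative utrophin, was between 60.6 and 74.2 CPM in all 10 libraries (interaction 0.18 ± 0.12, adjusted p = 0.46).

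Of 15013 genes tested, 132 (0.879%) passed an adjusted p of 0.05 in the interaction, by the quasi-likelihood F-test of edgeR, and 2642 had an unadjusted p under 0.05. The delEx44 response was higher in 88 of them (0.586% of genes tested) and lower in 44 (0.293%). Each genotype had a broad response of its own: 5355 genes (35.7%) differed between run and sedentary delEx44 muscle and 4138 (27.6%) between run and sedentary WT muscle. Among the 88, 30 rose in delEx44 and did not pass in WT, 26 fell in WT and did not pass in delEx44, 13 rose in delEx44 and fell in WT, 10 fell in both and 9 rose in both. Among the 44, 18 rose in WT and did not pass in delEx44, 14 fell in delEx44 and rose in WT, 11 fell in delEx44 and did not pass in WT, and 1, Nqo1, rose in both. At the sedentary stage 61 of the 88 were lower in delEx44 than in WT muscle, and 43 of these 61 did not pass between the run genotypes. Choice by a higher interaction favours this pattern, and the run comparison had 2 libraries per genotype against 3. The matching shares of all genes are not given here, so the counts carry no conclusion. The count of 132 was 11 to 167 when a library was left out, as detailed further on, and scaling by library size alone gave 78 higher and 1245 lower genes. DESeq2 called 718. The 10 libraries without those of corrected mice gave 41, of which 36 were among the 132, and 21 of the 45 called genes named by rule were then lost, among them Actn3, Ryr1, Cacna1s, Mybpc2, Sgcb, Dtna, Dysf, Chrnb1, Ctsd, Myod1, Dusp26 and Fam57b.

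**Figure D1:**
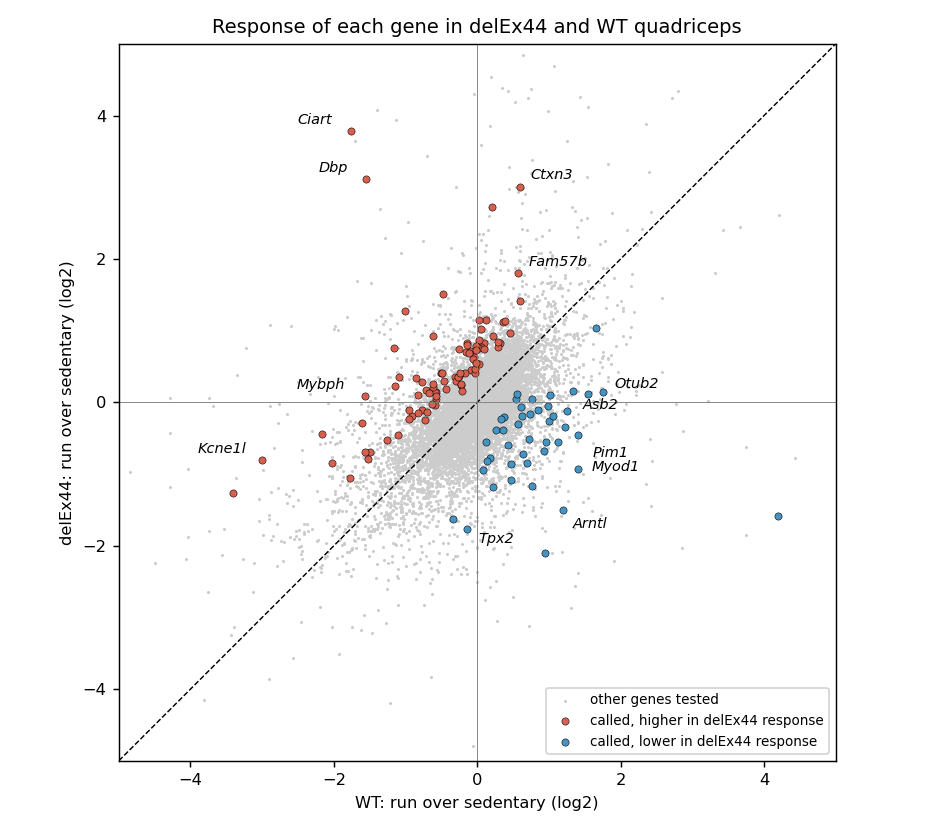
Log2 change of run over sedentary delEx44 muscle (vertical axis) against that of run over sedentary WT muscle (horizontal axis) for the genes tested, with 32 genes outside the axes. Each point is 1 gene, the dashed line marks equal responses, and the 132 called genes are coloured, 88 above the line in red and 44 below it in blue.

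Of the genes with the smallest p among the higher, several rose in delEx44 muscle while the WT response was small. Dhrs7c, a dehydrogenase of the sarcoplasmic reticulum (chromosome 11, 67798187 to 67816002, plus strand; GRCm38), was at 226 and 210.5 CPM in run delEx44 and 128, 137 and 136 CPM in sedentary delEx44 muscle. In WT muscle it was at 252 and 251 CPM after running and 289, 265.5 and 282 CPM in the sedentary stage. Both run delEx44 libraries lay above the sedentary delEx44 libraries and below every WT library. Its interaction was 0.86 ± 0.10 (adjusted p = 0.006), with a delEx44 response of 0.71 and a WT response of −0.15.

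Rnf123, a ubiquitin ligase that acts on the cell cycle inhibitor p27 (chromosome 9, 108051534 to 108083346, minus strand), was at 154 and 174.5 CPM in run delEx44 and 96.9, 102 and 97.4 CPM in sedentary delEx44 muscle. The 5 WT libraries held it between 154 and 158 CPM. Run delEx44 muscle thus overlapped WT muscle, and sedentary delEx44 muscle lay below both. The interaction was 0.76 ± 0.09 (adjusted p = 0.006). Myoz3, a Z-disc protein that binds calcineurin, followed the same pattern, with 249.5 and 292 CPM in run delEx44 against 145, 169 and 159 CPM in sedentary delEx44 muscle, and 276 to 296 CPM in the WT libraries. Its interaction was 0.79 ± 0.12 (adjusted p = 0.017).

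Cpe, the carboxypeptidase that trims prohormones and neuropeptides (chromosome 8, 64592542 to 64693054, minus strand), was at 366 and 380 CPM in run delEx44 and 202, 231 and 221 CPM in sedentary delEx44 muscle. Run WT muscle had 324 and 334 CPM and sedentary WT muscle 315, 316 and 316 CPM. Here run delEx44 libraries were the highest of the 10 and sedentary delEx44 libraries the lowest (interaction 0.72 ± 0.10, adjusted p = 0.012). Ctxn3, which encodes the small membrane protein cortexin 3 (chromosome 18, 57468516 to 57478133, plus strand), had the widest gap of the genes that passed whichever library was left out and that carry a name. It was at 124 and 92.8 CPM in run delEx44 and 14.2, 13.3 and 12.8 CPM in sedentary delEx44 muscle, against 19.8 and 28.6 CPM in run WT and 15, 15.7 and 17.5 CPM in sedentary WT muscle. The groups of each genotype did not overlap. Ctxn3 rose in both, by 3.01 in delEx44 (adjusted p = 7.9e-06) and by 0.59 in WT (adjusted p = 0.04), and the interaction was 2.42 ± 0.27 (adjusted p = 0.006). Fam57b, a ceramide synthase, also rose in both, by 1.80 in delEx44 and 0.57 in WT (interaction 1.23 ± 0.20, adjusted p = 0.026). It shares 25 exon bases with Aldoa on the other strand, and Rnf123 shares 937 with Gmppb, so without a known strand setting their reads may be mixed. The same holds for Tmod1 (1287 bases with Tstd2), Lrp2bp (349 with Ankrd37), Deptor (303 with Gm9920), Myom1 (207 with Myl12a) and Mapk8ip1 (96 with 1700029I15Rik).

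**Figure D2:**
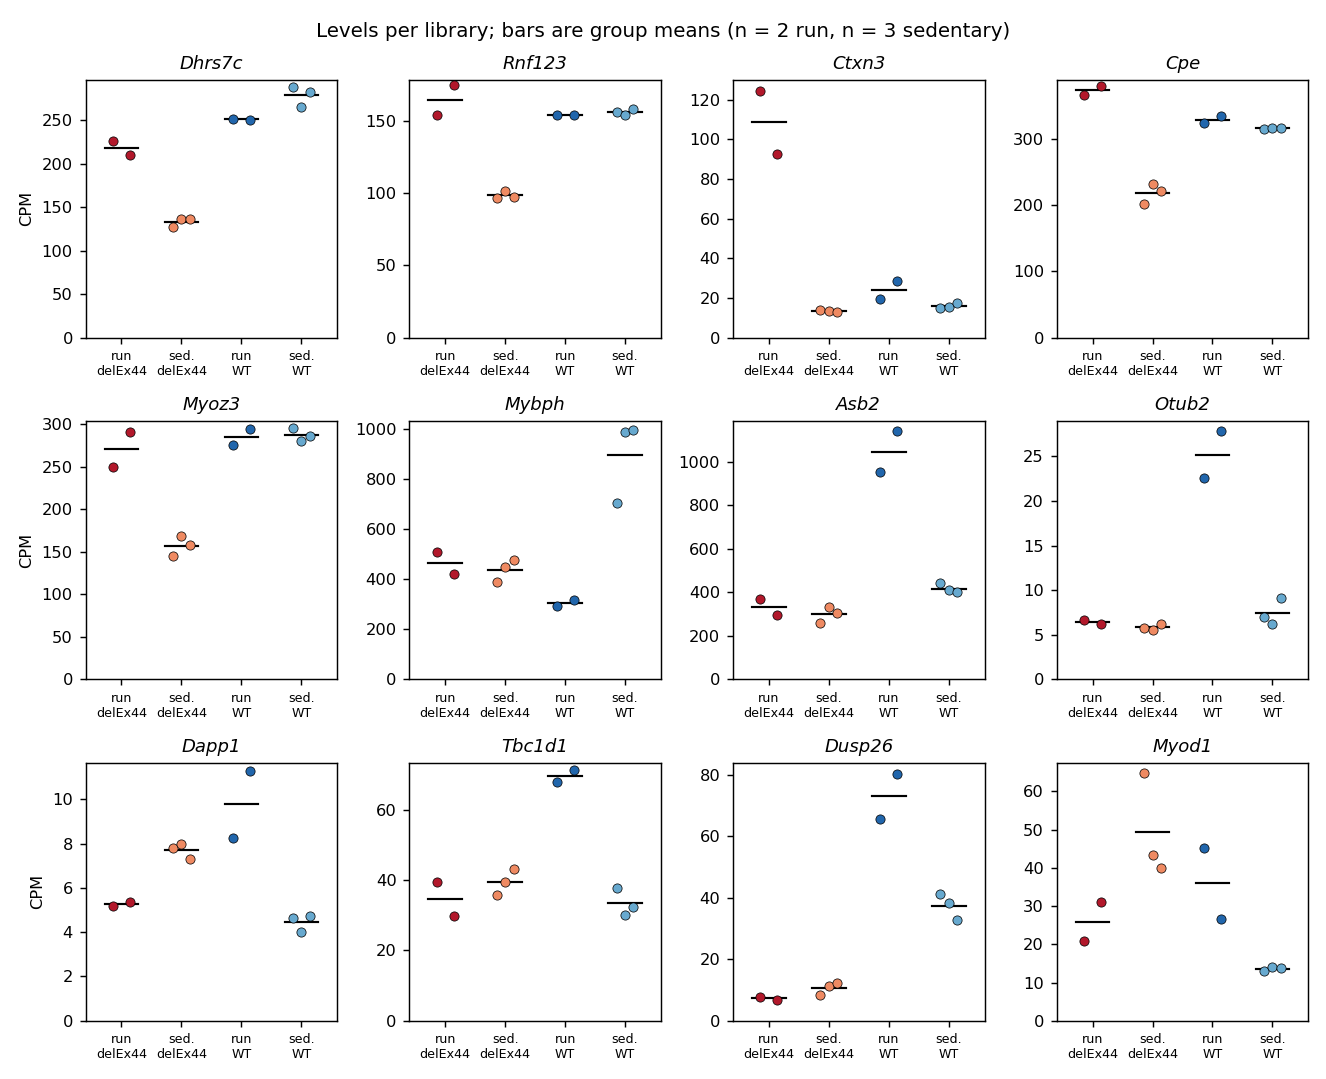
CPM of 12 called genes in each library (points) with group means (bars), in the order run delEx44, sedentary delEx44, run WT and sedentary WT. Dhrs7c, Rnf123, Ctxn3, Cpe and Myoz3 are higher in run than in sedentary delEx44 libraries, Mybph is lower in run than in sedentary WT libraries, and Asb2, Otub2, Dapp1, Tbc1d1 and Dusp26 are highest in run WT libraries.

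The fast fibre list had 5 of 19 tested genes called, all higher (26.3%, against 0.879% of all genes), with a median interaction of 0.67 against −0.01 over all genes. This list and those below were chosen with earlier results of these data known. No set test was run, so a list's share beside that of all genes is description only. The 5 calls were 0 in the 10 libraries alone and 13 with DESeq2. They were also 0 without sedentary WT replicate 1 or 2, run WT replicate 1 or either run delEx44 library, and 1 without sedentary delEx44 replicate 1 or run WT replicate 2. Actn3, the alpha-actinin of fast fibres, was at 7110 and 6934 CPM in run delEx44 and 3492, 4349 and 4685 CPM in sedentary delEx44 muscle, against 7816 and 8207 CPM in run WT and 9699, 8934 and 9984 CPM in sedentary WT muscle. The 2 delEx44 groups did not overlap and both stayed below the WT libraries (interaction 1.00 ± 0.19, adjusted p = 0.032). The other 4 called genes were Cacna1s, Ryr1, Mybpc2 and Mylpf, the first pair of which is also in the calcium handling list. The voltage sensor Cacna1s and the calcium release channel Ryr1, which together couple excitation to contraction, rose in delEx44 by 0.83 and 1.12. In WT, Ryr1 rose by 0.36 and Cacna1s was at 0.09, and their interactions were 0.74 ± 0.14 and 0.76 ± 0.16. The myosin-binding protein Mybpc2 (0.89 ± 0.17) and the fast regulatory light chain Mylpf (0.72, outside the rule for named genes) fell in WT, by 0.72 and 0.96, while their delEx44 responses were 0.17 and −0.24. The fast myosin Myh4 (0.91 ± 0.23), the calcium pump Atp2a1 (0.82) and Ckm (0.70) had values of like size that did not pass (adjusted p = 0.078, 0.051 and 0.068).

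Other sarcomere genes among the 132, picked out after their values were seen, were the M-band genes Myom1 (0.79) and Myom2 (0.89), the Z-disc genes Myoz1 (0.74) and Mypn (0.66), the thin filament cap Tmod1 (0.65) and the sarcomere turnover gene Klhl41 (0.62). All 6 rose in delEx44 muscle, by 0.36 to 0.76. Over the 88 higher genes 52 rose there, and over all 15013 genes tested 2457. The 6 were picked by hand from the called genes, so their shared direction carries no conclusion. In WT muscle Myom2 and Tmod1 fell, by 0.49 and 0.24, and Klhl41 by 0.25. In the calcium handling and ion channel list 3 of 30 passed (10%, median 0.40), namely Cacna1s, Ryr1 and Kcne1l, and of 28 glycolysis and glycogen genes 1 passed (3.57%, median 0.42). These counts were 1 and 0 in the 10 libraries alone, 16 and 12 with DESeq2, 0 to 4 and 0 to 5 with a library left out, and both 0 without run WT replicate 1. Of 42 oxidative phosphorylation genes 0 were called by edgeR and DESeq2 alike, with 2 at an unadjusted p under 0.05 and a median of 0.15 that turned to −0.11 with library sizes alone.

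Of 22 dystrophin complex genes 3 passed, all higher (13.6%, median 0.34, and 0.07 with library sizes alone). With DESeq2 10 passed and in the 10 libraries alone 0. The count was 0 without sedentary WT replicate 1 or 2, sedentary delEx44 replicate 1, either run WT library or run delEx44 replicate 2, and 1 without run delEx44 replicate 1. Sgcb, the beta-sarcoglycan, was at 173 and 183 CPM in run delEx44 and 174, 179 and 194 CPM in sedentary delEx44 muscle, against 182 and 177.5 CPM in run WT and 272, 265 and 271 CPM in sedentary WT muscle. Sedentary WT muscle alone stood high, and the other groups overlapped. Sgcb fell in WT by 0.58 (adjusted p = 1e-04) and its interaction was 0.55 ± 0.09 (adjusted p = 0.028). Dtna, an alpha-dystrobrevin, and Dysf, the membrane repair protein dysferlin, rose in delEx44 by 0.36 and 0.30 and fell in WT by 0.31 and 0.29. Their interactions were 0.67 ± 0.13 and 0.59 ± 0.12. The alpha-sarcoglycan Sgca (0.56) did not pass (adjusted p = 0.057). Of the 22 genes 5 were below 0, and Nos1 (−1.07 ± 0.27) had the largest value of either sign (adjusted p = 0.085). Nos1 rose in WT by 0.98, and its delEx44 response was −0.09. The calpain Capn3, of the atrophy and autophagy list, is mutated in a limb-girdle dystrophy and did not pass either (0.61, adjusted p = 0.057).

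A further group fell with running and growth in WT muscle and was held, or fell less, in delEx44 muscle. Mybph, the myosin-binding protein H that is more abundant in growing fibres (chromosome 1, 134193448 to 134201232, plus strand), was at 507 and 421 CPM in run delEx44 and 390, 446 and 478 CPM in sedentary delEx44 muscle. In WT it was at 291 and 318 CPM after running and 703, 988 and 995 CPM in the sedentary stage. The delEx44 groups overlapped, while the WT groups were far apart (interaction 1.64 ± 0.23, adjusted p = 0.013). Mybph shares 1162 exon bases with Adora1 on the other strand. Kcne1l, an accessory subunit of potassium channels on chromosome X, was at 7.96 and 10.3 CPM in run delEx44, 15.6, 18.2 and 14 CPM in sedentary delEx44, 0.89 and 0.62 CPM in run WT and 6.58, 5.31 and 6.19 CPM in sedentary WT muscle. It fell in both genotypes, by 0.81 in delEx44 and by 3.00 in WT, and no group overlapped another (interaction 2.19 ± 0.32, adjusted p = 0.017).

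Deptor, an inhibitor of the growth kinase mTOR, was at 156.5 and 160 CPM in run delEx44 and 134, 129 and 145 CPM in sedentary delEx44 muscle, against 154 and 119 CPM in run WT and 208, 210 and 210 CPM in sedentary WT muscle. It fell in WT by 0.61, and its delEx44 response was 0.22 (interaction 0.83 ± 0.13, adjusted p = 0.02). The acetylcholine receptor subunit Chrnb1 (0.56 ± 0.11), the p53 target Ccng1 (0.66 ± 0.14) and the JNK scaffold Mapk8ip1 (0.68 ± 0.11) likewise fell in WT, by 0.70, 0.77 and 0.83, and did not pass in delEx44. For Chrnb1 run WT muscle was the low group, at 36.8 and 40.8 CPM against 61.6 to 93.4 CPM in the other 8 libraries. Lrp2bp, which binds the receptor Lrp2 (1.19 ± 0.19), and the ubiquitin ligase receptor Dcaf4 (0.54 ± 0.09) were also higher. Dcaf4 rose in delEx44 by 0.45 and Lrp2bp fell in WT by 0.85. Matrix genes fell in both genotypes, with medians over 44 genes of −0.84 in delEx44 and −1.15 in WT, and 2 of the 44 passed (4.55%, median 0.29, and 0.02 with library sizes alone), against 0 to 2 with a library left out. Loxl2, a collagen crosslinking enzyme, fell by 0.79 in delEx44 and 1.52 in WT (0.73 ± 0.14).

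Of the 44 genes with a lower delEx44 response, 33 rose in WT and 25 fell in delEx44. Over all 15013 genes 2009 rose in WT and 2898 fell in delEx44. Choice by a lower interaction favours both, so these counts carry no conclusion. Asb2, a ubiquitin ligase receptor that targets filamins (chromosome 12, 103321142 to 103356001, minus strand), was at 368.5 and 297 CPM in run delEx44 and 260, 331 and 303 CPM in sedentary delEx44 muscle, against 952 and 1143 CPM in run WT and 442, 410 and 399 CPM in sedentary WT muscle. Run WT muscle was above every other library, and the delEx44 groups overlapped. Asb2 rose in WT by 1.33 (adjusted p = 2.8e-05), its delEx44 response was 0.16, and the interaction was −1.17 ± 0.18 (adjusted p = 0.017). Its neighbour Otub2, a deubiquitinase (chromosome 12, 103388682 to 103406350, plus strand), was at 6.61 and 6.23 CPM in run delEx44, 5.72, 5.52 and 6.20 CPM in sedentary delEx44, 22.6 and 27.8 CPM in run WT and 6.96, 6.17 and 9.13 CPM in sedentary WT muscle. Again run WT muscle stood alone (interaction −1.62 ± 0.23, adjusted p = 0.013).

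Tbc1d1, a Rab regulator of glucose transporter traffic (chromosome 5, 64156305 to 64351486, plus strand), was at 39.4 and 29.8 CPM in run delEx44 and 35.8, 39.5 and 43.1 CPM in sedentary delEx44 muscle, against 68 and 71.3 CPM in run WT and 37.8, 30.1 and 32.5 CPM in sedentary WT muscle. Its interaction was −1.25 ± 0.19 (adjusted p = 0.017), with both run WT libraries above the other 8. Dapp1, a phosphoinositide-binding adaptor (chromosome 3, 137931007 to 137981545, minus strand), was at 5.19 and 5.34 CPM in run delEx44 and 7.78, 7.99 and 7.30 CPM in sedentary delEx44 muscle, against 8.25 and 11.3 CPM in run WT and 4.63, 4.01 and 4.73 CPM in sedentary WT muscle. The genotypes crossed: Dapp1 fell in delEx44 by 0.55 and rose in WT by 1.13, and no groups of a genotype overlapped (interaction −1.68 ± 0.23, adjusted p = 0.012). Slc16a9, of the monocarboxylate transporter family (−1.61 ± 0.24), and the phosphatase Dusp26 (−1.52 ± 0.25) also fell in delEx44 and rose in WT. Dusp26 was at 7.83 and 6.70 CPM in run delEx44, 8.31, 11.4 and 12.3 CPM in sedentary delEx44, 65.8 and 80.4 CPM in run WT and 41.4, 38.4 and 32.8 CPM in sedentary WT muscle. The delEx44 libraries were low at both stages.

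Myod1, the myogenic transcription factor, was at 20.9 and 30.9 CPM in run delEx44 and 64.9, 43.4 and 39.9 CPM in sedentary delEx44 muscle, against 45.3 and 26.7 CPM in run WT and 13.1, 14.1 and 13.7 CPM in sedentary WT muscle. It fell in delEx44 by 0.93 and rose in WT by 1.40 (interaction −2.33 ± 0.38, adjusted p = 0.028). Of 21 other satellite cell and myogenic genes edgeR called 0, with 5 at an unadjusted p under 0.05 and 2 called by DESeq2 (median −0.07). The kinase Pim1 (−1.86 ± 0.35), the integrin Itgb4 (−0.92 ± 0.16), the sphingosine kinase Sphk2 (−0.81 ± 0.13) and the amino sugar deacetylase Amdhd2 (−0.90 ± 0.15) rose in WT by 1.40, 1.02, 0.62 and 0.74 and did not pass in delEx44. Rnpep, an aminopeptidase (−0.75 ± 0.11), and Gmnn, the replication inhibitor geminin (−1.23 ± 0.21), fell in delEx44 and rose in WT. The quinone reductase Nqo1 was at 20.7 and 25 CPM in run delEx44 against 11.2, 10.8 and 11.2 CPM in sedentary delEx44, and at 30.9 and 34.3 CPM in run WT against 10.1, 10.4 and 10.5 CPM in sedentary WT muscle. It rose in both, less so in delEx44 (−0.62 ± 0.13, adjusted p = 0.046).

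Clock genes held the largest folds among the called genes named here. In muscle, as elsewhere, the activators Clock and Arntl bind E-boxes in the promoters of the Per and Cry repressors and of output factors such as Dbp and Tef, and the receptors Nr1d1 and Nr1d2 repress Arntl through ROR elements, so that Arntl and Dbp peak at opposite hours of the day. The clock list of 20 genes includes the tetraspanin Tspan4 (0.46, not called). Of the 20, 6 passed (30%), 4 higher and 2 lower, with a median interaction of 0.62. The count was 6 in the 10 libraries alone and 11 with DESeq2, but 0 without sedentary WT replicate 2, sedentary delEx44 replicate 1, run delEx44 replicate 1 or either run WT library, and 2 to 4 without any other library. Nr1d2 and Cry1 were outside the rule for named genes and are included because they complete the 6. RefSeq promoter windows of GRCm38.p6, from 250 bases before to 50 after a start, were matched for all 6. Those of Ciart (called higher), Cry1 and Arntl (both called lower) and the downstream window of Tef are printed 5′ to 3′ on the gene's strand. The E-box CACGTG or, for Arntl, the ROR element core TAGGTCA is in capitals.
Ciart, chr3:95882179-95882478, minus strand: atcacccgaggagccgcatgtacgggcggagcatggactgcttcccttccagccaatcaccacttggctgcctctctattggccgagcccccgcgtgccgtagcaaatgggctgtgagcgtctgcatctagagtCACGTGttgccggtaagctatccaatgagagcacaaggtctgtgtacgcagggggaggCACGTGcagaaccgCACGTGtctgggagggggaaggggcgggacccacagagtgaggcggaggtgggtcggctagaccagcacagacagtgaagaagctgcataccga
Tef, chr15:81811164-81811463, plus strand: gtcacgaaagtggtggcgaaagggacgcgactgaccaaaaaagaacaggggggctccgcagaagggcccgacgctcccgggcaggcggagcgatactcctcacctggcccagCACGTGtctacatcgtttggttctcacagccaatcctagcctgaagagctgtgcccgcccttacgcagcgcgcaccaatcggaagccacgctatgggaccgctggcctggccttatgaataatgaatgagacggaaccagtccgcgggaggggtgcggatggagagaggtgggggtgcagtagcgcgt
Cry1, chr10:85185005-85185304, minus strand: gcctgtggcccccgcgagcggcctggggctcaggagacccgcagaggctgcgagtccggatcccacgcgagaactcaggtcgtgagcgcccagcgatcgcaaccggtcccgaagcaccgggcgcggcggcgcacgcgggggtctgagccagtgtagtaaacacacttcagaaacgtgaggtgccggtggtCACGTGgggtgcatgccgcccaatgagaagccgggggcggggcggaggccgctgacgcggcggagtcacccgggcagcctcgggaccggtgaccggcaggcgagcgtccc
Arntl, chr7:113207261-113207560, plus strand: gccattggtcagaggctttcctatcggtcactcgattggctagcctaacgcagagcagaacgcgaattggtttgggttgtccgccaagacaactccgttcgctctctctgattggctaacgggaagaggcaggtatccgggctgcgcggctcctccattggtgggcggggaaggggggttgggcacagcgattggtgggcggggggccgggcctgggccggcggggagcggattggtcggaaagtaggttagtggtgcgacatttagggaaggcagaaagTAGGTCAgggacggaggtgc

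Both strands were searched. An E-box occurred 3 times in the Ciart window and 1 time in each of the Cry1 and Tef windows, and 7.15% of 32851 promoter windows hold one. The ROR core, which was added to the motifs searched after the data were seen, occurred 1 time in the Arntl window printed, was absent from the other Arntl window, which starts at 113207215, and is in 2.61% of windows. The windows of Dbp and Nr1d2 had neither, and the D-box TTATGNAA, found in 3.38% of windows, was in none of the windows of the 6. These are matches of letters, not measured binding.

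Ciart, a repressor of the Clock and Arntl pair, was at 12.1 and 4.35 CPM in run delEx44 and 0.404, 0.545 and 0.854 CPM in sedentary delEx44 muscle, against 0.742 and 1.04 CPM in run WT and 2.11, 2.6 and 4.37 CPM in sedentary WT muscle. Dbp, an output factor, was at 134 and 113.5 CPM in run delEx44 and 10.9, 17.3 and 14.9 CPM in sedentary delEx44 muscle, against 14.5 and 28.4 CPM in run WT and 48.2, 53.5 and 87.4 CPM in sedentary WT muscle. For both genes run delEx44 and sedentary WT libraries were high and the other 5 low. The interactions were 5.54 ± 0.94 for Ciart (adjusted p = 0.029) and 4.66 ± 0.84 for Dbp (adjusted p = 0.041). Dbp shares 539 exon bases with Sphk2, which had the opposite sign and shares a further 373 with Rpl18. Tef was at 359 and 337 CPM in run delEx44 and 139, 159 and 172 CPM in sedentary delEx44 muscle, against 272 and 276 CPM in run WT and 252, 264.5 and 288 CPM in sedentary WT muscle. The 2 delEx44 groups lay on either side of the WT libraries (1.12 ± 0.21). Nr1d2 had an interaction of 1.54 ± 0.31.

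Arntl was the mirror image, at 8.22 and 14.5 CPM in run delEx44 and 35.1, 30.9 and 29.9 CPM in sedentary delEx44 muscle, against 46 and 52.2 CPM in run WT and 23, 24.4 and 17.4 CPM in sedentary WT muscle. It fell in delEx44 by 1.5, rose in WT by 1.19, and its interaction was −2.68 ± 0.44 (adjusted p = 0.028). Cry1 was at 12 and 12.4 CPM in run delEx44 and 13, 15.1 and 12 CPM in sedentary delEx44 muscle, against 26.9 and 25.8 CPM in run WT and 13.7, 11.3 and 8.15 CPM in sedentary WT muscle, so that run WT alone was high (−1.38 ± 0.29, adjusted p = 0.048). Cry2 (0.80), Hlf (1.28), Per3 (2.07), Per2 (2.33) and Npas2 (−2.25) did not pass, at adjusted p = 0.051, 0.066, 0.066, 0.13 and 0.078. Within a group the libraries of the same label also differed, as for Per1 at 133 and 60.2 CPM in run delEx44 and 8.74, 59.7 and 54.3 CPM in sedentary delEx44 muscle. The part of harvest time in these values was not tested, since the hour is not given.

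**Figure D3:**
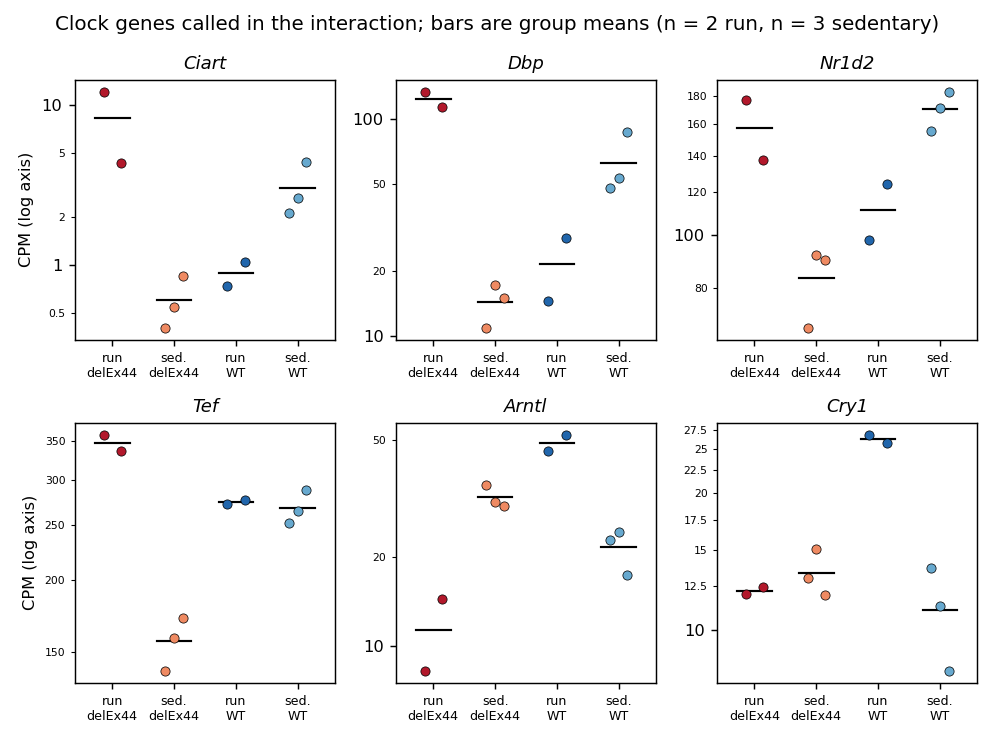
CPM, on a log axis, of the 6 clock genes called in the interaction, in each library (points) with group means (bars). Ciart, Dbp, Nr1d2 and Tef are high in run delEx44 and low in sedentary delEx44 libraries, Arntl is low in run delEx44 and high in run WT libraries, and Cry1 is high in run WT libraries only.

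Interferon, antigen presentation and macrophage genes had negative medians with few or no calls. Of 38 interferon response genes edgeR called 0, with 13 at an unadjusted p under 0.05 and 3 called by DESeq2. All 38 had values below 0, with a median of −0.80, while 7765 of the 15013 genes tested were below 0. Within delEx44, 33 of the 38 fell (median −1.38), and within WT 5 fell (median −0.57). Over all 15013 genes 2898 fell in delEx44 and 2129 in WT, so the WT count of 5 was near the share of all genes. Rsad2, an antiviral enzyme and the gene of this list with the smallest p, was at 11.6 and 12.1 CPM in run delEx44 and 42.2, 27.4 and 29.6 CPM in sedentary delEx44 muscle, against 9.58 and 11.3 CPM in run WT and 9.82, 11.6 and 13.6 CPM in sedentary WT muscle. Sedentary delEx44 muscle was the high group, yet the interaction of −1.32 ± 0.37 did not pass (adjusted p = 0.11). Of 19 antigen presentation genes edgeR also called 0, with 13 at an unadjusted p under 0.05 and 7 called by DESeq2, and all 19 were below 0 (median −0.81). Here 4 fell in delEx44, near the share of all genes (2898 of 15013). In WT 6 rose, against 2009 of all genes. Psmb10, an immunoproteasome subunit, came closest to passing in the interaction (−0.60 ± 0.15, adjusted p = 0.081).

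Of 30 macrophage and monocyte genes 1 passed (3.33%), 29 were below 0 and the median was −0.62. DESeq2 called 5 of the 30, and 0 to 3 were called with a library left out. In delEx44 26 of the 30 fell (median −0.98), and in WT none fell and 1 rose (median −0.14). Over all 15013 genes 2898 fell in delEx44, 2129 fell in WT and 2009 rose in WT. The called gene was Ctsd, a lysosomal protease that fibres also express, at 960 and 865 CPM in run delEx44 and 1294, 1038 and 1242 CPM in sedentary delEx44 muscle, against 885 and 856.5 CPM in run WT and 717, 710 and 742 CPM in sedentary WT muscle. It fell in delEx44 and rose in WT, so that the run groups overlapped (−0.65 ± 0.13, adjusted p = 0.042). The summed level of the 30 genes was 3831 and 3645 CPM in run delEx44 and 5200 to 7218 CPM in sedentary delEx44 muscle. Cell cycle genes fell in both genotypes, 30 of 35 in delEx44 (median −1.44) and 16 of 35 in WT (median −1.08). Only the spindle gene Tpx2 passed in the interaction (2.86%), at 5.85 and 5.34 CPM in run delEx44 and 19.1, 19.8 and 18 CPM in sedentary delEx44 muscle, against 8.66 and 8.92 CPM in run WT and 7.15, 9.71 and 12.1 CPM in sedentary WT muscle (−1.63 ± 0.27, adjusted p = 0.028). Its high group was sedentary delEx44. The imprinted gene Peg10, at 3.87 and 4.43 CPM in run delEx44 and 10.5 to 16.1 CPM in sedentary delEx44 muscle, fell in delEx44 by 1.62 and was at 2.57 to 3.72 CPM in the WT libraries (−1.29 ± 0.25, adjusted p = 0.032).

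The lists of regenerating and immature fibres (median −0.07, 2 of 24 called, Mybph and Myod1) and of exercise and mechanical load (median 0.04, 0 of 26 by edgeR, 1 by DESeq2 and 3 at an unadjusted p under 0.05) lay near the median of all genes. Over all 15013 genes, 2642 had an unadjusted p under 0.05 by edgeR and DESeq2 called 718. Immediate early genes had a median of 0.73 and 0 calls by edgeR among 28. Of the 28, 5 had an unadjusted p under 0.05, near the share of all genes, and 3 were called by DESeq2. Their median was 0.30 without run delEx44 replicate 1, and 5 were called without run delEx44 replicate 2. In the full set Klf6 came closest (0.75 ± 0.20, adjusted p = 0.087). Neutrophil and red cell medians were 2.17 and 1.51 with 0 calls by edgeR among 15 and 6 genes, 1 and 2 at an unadjusted p under 0.05 and 0 and 1 called by DESeq2, and without sedentary WT replicate 3 they were −2.71 and −0.73. Without that library the tendon and cartilage median of 0.67 was −0.07 and the slow fibre median of −0.24 was 0.06. The adipocyte median of −0.14 was −0.93 without sedentary WT replicate 3 and 1.13 without run WT replicate 1. The medians of fast fibres (0.58 to 0.73), the dystrophin complex (0.27 to 0.37), calcium handling (0.32 to 0.46), glycolysis (0.34 to 0.52), clock (0.45 to 0.90), macrophage (−0.73 to −0.40), interferon (−0.94 to −0.61) and antigen presentation genes (−0.99 to −0.64) kept their sign in all 10 fits that left out 1 library and under each scaling tried, among which library sizes alone moved the median of all genes to −0.28. Under that scaling the medians were 0.41 for fast fibres, 0.07 for the dystrophin complex, 0.14 for calcium handling, 0.16 for glycolysis and 0.37 for clock genes, and −0.89, −1.07 and −1.08 for macrophage, interferon and antigen presentation genes.

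**Figure D4:**
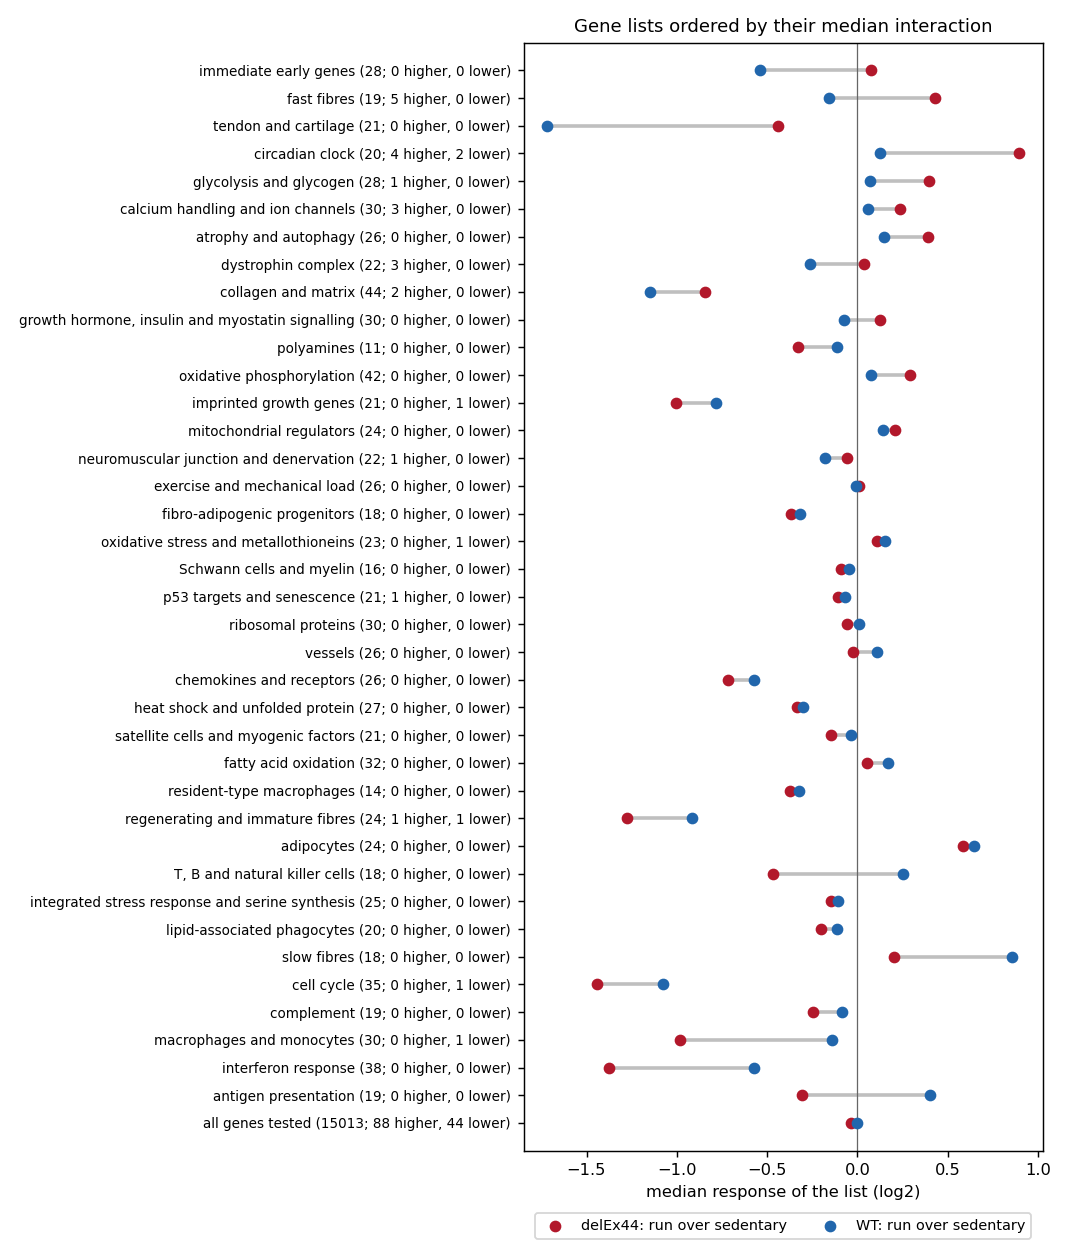
Median log2 change of run over sedentary muscle in delEx44 (red) and WT (blue) for 38 gene lists and all genes tested, ordered by median interaction, with the number of genes tested and called after each name. Antigen presentation, interferon and macrophage genes lie lower in delEx44 than in WT, and fast fibre and clock genes higher; neutrophil and red cell lists are left out.

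Calls depended on single libraries. All 132 genes kept their direction in each of the 10 fits that left out 1 library, which their choice by the full fit largely sets. The number called was 25 without run delEx44 replicate 1 and 84 without replicate 2, 24, 114 and 117 without sedentary delEx44 replicate 1, 2 and 3, 11 without run WT replicate 1 and 61 without replicate 2, and 43, 25 and 167 without sedentary WT replicate 1, 2 and 3. Of the 132, those that still passed numbered 21 and 46 in the 2 fits without a run delEx44 library, 24, 96 and 90 without a sedentary delEx44 library, 10 and 37 without a run WT library, and 40, 24 and 106 without a sedentary WT library. A total of 8 passed in all 10 fits, of which 6 are named genes: Dhrs7c, Rnf123 and Ctxn3 among the higher and Asb2, Otub2 and Dapp1 among the lower. Their worst adjusted p in the 10 fits lay at 0.029 for Dhrs7c, 0.032 for Rnf123, 0.028 for Ctxn3, 0.048 for Asb2, 0.043 for Otub2 and 0.043 for Dapp1. Cpe, Mybph, Myoz3 and Tbc1d1 passed in 9 and were lost without run WT replicate 1, at adjusted p = 0.067, 0.089, 0.095 and 0.072. Deptor was lost without run delEx44 replicate 1, at adjusted p = 0.053. At the other end, 7 genes including Dbp passed in none, and the 5 fast fibre genes passed in 1 to 4 of the 10. Without both libraries that stood apart, sedentary WT replicate 3 and run WT replicate 1, 5 genes were called.

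**Figure D5:**
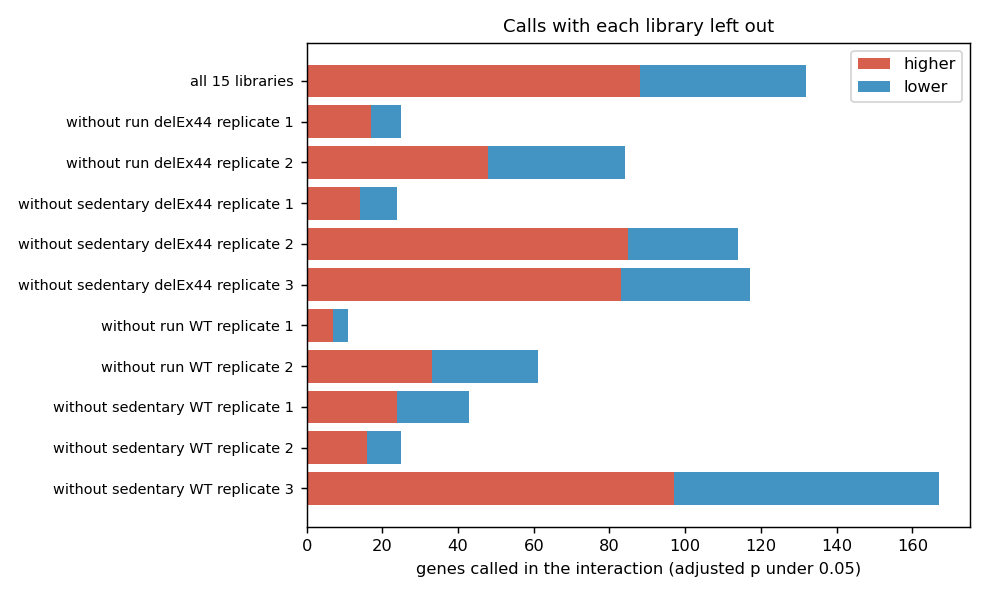
Number of genes called in the interaction with all 15 libraries in the fit and with each of the 10 libraries left out, higher in red and lower in blue. The bars run from 11 without run WT replicate 1 to 167 without sedentary WT replicate 3, against 132 with all libraries.

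Corrected mice, which are delEx44 mice given AAV9 vectors for SpCas9 and a guide RNA at postnatal day 4, took part in the filter on low counts and in the estimate of spread but not in the contrast. Their run (n = 2) and sedentary (n = 3) libraries give a response that was not part of the interaction. Over the 88 higher genes the median response was 0.38 in delEx44 and −0.16 in corrected muscle, against −0.45 in WT. Over the 44 lower genes it was −0.42 in delEx44 and 0.27 in corrected muscle, against 0.73 in WT. These genes were chosen by the gap between delEx44 and WT, which sets those medians apart. A corrected median between them therefore carries no conclusion. Corrected responses of Asb2 (0.89), Otub2 (0.77), Dapp1 (0.58) and Tbc1d1 (0.66) were rises that passed, as in WT. Mybph (−1.19), Sgcb (−0.47) and Chrnb1 (−0.57) fell, as in WT. Kcne1l (−2.07) fell, as in both WT and delEx44. Ctxn3 rose by 1.23 in corrected muscle. Of the called clock genes, Ciart (2.02) and Tef (0.51) rose and passed, as in delEx44. Dbp (1.49) and Arntl (−0.62) had the sign of delEx44, opposite to WT, but did not pass. The value of Nr1d2 (0.19) also had the sign of delEx44, and that of Cry1 (0.26) the sign of WT. Dhrs7c (0.03), Rnf123 (0.07), Cpe (0.03), Myoz3 (−0.08) and Actn3 (−0.03) did not pass there. Whether corrected responses differ from those of delEx44 or WT muscle was not tested.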

How the data were processed

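Polyadenylated RNA of whole quadriceps was sequenced from TruSeq libraries. The authors deposited raw read counts per gene symbol. The submitters' processing notes name build mm10, the aligners STAR 2.7.2b and Bowtie2 2.3.4.3, the counter HTSeq, and also edgeR, SAMtools 1.9 and Trim Galore. For annotation and strand setting the entry is: not given in the sources used here. The 5 special records that name no gene held 27.4 to 34.2% of counts and were left out, and 0 other per-sample columns were left unused.

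The gene lists and the genes in them were chosen with earlier results of these data known. Genes were filtered with filterByExpr by group, scaled by TMM and fitted with edgeR 4.0.16 (R 4.3.3; glmQLFit, robust) over 15 libraries, the 10 of the contrast and 5 of corrected mice, which share 1 estimate of spread. The interaction and both responses were tested with the quasi-likelihood F-test and Benjamini-Hochberg adjustment at 0.05, and SE is the log2 value over the square root of F. The test was run on simulated counts first. CPM values are counts scaled to a common TMM-corrected library size.

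Named genes were Dmd, Utrn, the 12 smallest p and 6 largest log2 values in each direction among called genes whose mean reached 5 CPM in any of the 4 groups, the 10 with the smallest worst adjusted p over the left-out fits, and up to 3 called members of each list, or the 1 with the smallest p. Unnamed identifiers were counted only, a few genes that the rule names are not reported here, and 24 called genes share exon bases with another tested gene. Alternatives were RLE factors, library sizes alone, other filters, the 10 libraries alone, DESeq2 1.42.0, limma-voom (limma 3.58.1) and each library left out. Positions are from GENCODE vM21 (GRCm38).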

Additional observations from a re-analysis of the deposited data

Results flagged for a closer look

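In the interaction 132 genes differed between the genotypes in their run over sedentary response. The called genes named here follow because that difference passed its test. Values in brackets are interaction log2, with the number of the 10 fits leaving out 1 library in which each gene passed.

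Higher delEx44 responses are given from most to fewest fits passed. Dhrs7c (0.857), Ctxn3 (2.42) and Rnf123 (0.756) passed in 10. Cpe (0.716), Mybph (1.64), Myoz3 (0.792) and Deptor (0.834) passed in 9. Kcne1l (2.19) and Mapk8ip1 (0.678) passed in 8. Dcaf4 (0.536) and Fam57b (1.23) passed in 7. Lrp2bp (1.19) passed in 6. Ciart (5.54) passed in 5. Mybpc2 (0.887) and Cacna1s (0.738) passed in 4. Sgcb (0.546), Tef (1.12), Actn3 (1.00), Dtna (0.671) and Chrnb1 (0.561) passed in 3. Loxl2 (0.728), Ccng1 (0.66), Ryr1 (0.762) and Dysf (0.586) passed in 2. Dbp (4.66) passed in 0.

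Lower delEx44 responses are given in the same way. Dapp1 (−1.68), Otub2 (−1.62) and Asb2 (−1.17) passed in 10. Tbc1d1 (−1.25) passed in 9. Rnpep (−0.749) and Slc16a9 (−1.61) passed in 8. Gmnn (−1.23) and Amdhd2 (−0.902) passed in 6. Sphk2 (−0.81), Dusp26 (−1.52) and Myod1 (−2.33) passed in 5. Tpx2 (−1.63), Itgb4 (−0.92), Arntl (−2.68) and Pim1 (−1.86) passed in 4. Peg10 (−1.29) passed in 3. Ctsd (−0.653) passed in 2. Nqo1 (−0.619) passed in 1. The highest adjusted p in any of those fits was 0.222, for Dysf.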

How the results depend on the processing

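With 132 genes called (88 higher, 44 lower), RLE factors gave 134, no filter 120 and limma-voom 125. Library sizes alone, added after the data were seen, gave 1323 (78 higher, 1245 lower) and moved the median of all genes to −0.28. A mean of at least 5 CPM gave 185 (115 higher, 70 lower), DESeq2 718 (501 higher, 217 lower) and the 10 libraries alone 41 (24 higher, 17 lower). Leaving out 1 library gave 11 to 167 (7 to 97 higher, 4 to 70 lower), 3111 to 5562 for the delEx44 response and 2216 to 4189 for the WT response. Without sedentary WT replicate 3 and run WT replicate 1 together, 5 were called (1 higher, 4 lower), and 2145 in the WT response. Causes were not tested. None of the 45 called genes named by rule reversed under any of these; directions of called genes named outside it were followed only with each library left out. The interaction log2 of Ngp, a neutrophil granule gene that was not called (6.87), ran from −3.02 without sedentary WT replicate 3 to 7.53 without run delEx44 replicate 2, and was −2.66 without sedentary WT replicate 3 and run WT replicate 1. The interaction log2 of Utrn reversed to −0.0906 with library sizes alone. With 2 run libraries per genotype, 1 left after an omission is assumed to vary like the other groups. No paired analysis was possible because the labels carry library numbers that the groups do not share.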
